A study of Mus musculus with 4 samples.

Results

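The 10 genes described here encode the classical subunits of the transcription factor AP-1 (Fos, Fosb, Fosl1, Fosl2, Jun, Junb and Jund) and 3 early growth response factors (Egr1, Egr2 and Egr3). They were taken by name from the array annotation, each from a row that names that gene alone, and 9 of the 10 had such a row among the 22180 genes tested. The only row that names Fosl1 also names Ccdc85b, so Fosl1 has no value here. Jund had 2 rows, of which the brighter stands for the gene. The values are log2 intensities from primary keratinocytes of 1-week-old C57BL/6J mice, measured on 2 arrays of WT cells (Glut1_fl/fl) and 2 arrays of cells labelled Glut1-deficient (Glut1_fl/fl K14 Cre). Both genotypes thus carried floxed alleles of the glucose transporter gene, and the Cre transgene used the K14 promoter, a promoter of the basal epidermal layer. The cells grew in a serum-free keratinocyte medium that contained EGF, insulin, hydrocortisone and pituitary extract, and each array held 2 plates of 1 genotype, harvested together 1 day after replating. For extraction 1500000 WT cells but 1000000 labelled Glut1-deficient cells were lysed per sample, a difference that cannot be told apart from genotype. Pools from 4 mice per genotype were used, so the spread given below is that between 2 pools, and the small number of arrays limits the precision.

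AP-1 is a dimer of basic leucine zipper proteins. FOS proteins bind DNA only together with a partner such as a JUN protein, whereas JUN proteins can also pair with each other, and the mix of subunits decides which genes respond. Many of these genes are immediate early genes: growth factors, stress or wounding switch them on within minutes through MAP kinases and the serum response factor, before any new protein is made. EGR proteins are zinc finger factors of the same early response and bind GC-rich sites. In epidermis AP-1 controls involucrin, keratins, metalloproteinases and other genes of differentiation and wound repair, and JUN proteins differ there, JUNB being known to oppose JUN at several targets.

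The array medians lay between 4.07 and 4.11. Slc2a1, the gene encoding Glut1, has 2 rows, of which the brighter read 11.09 ± 0.056 on WT arrays and 11.01 ± 0.003 on those labelled Glut1-deficient (SD over 2 arrays), which differed by -0.075 on the log2 scale (95% interval -0.298 to 0.148). The dimmer row read 5.18 and 5.10 on WT arrays against 4.80 and 4.44, a difference of -0.52 (95% interval -0.94 to -0.10, limma adjusted p = 0.247 with every row tested). Where its probes lie relative to the floxed exons is not given in the sources used here, so these rows are no check of the genotype and the group is named by its label. Of 11 keratinocyte markers with a value, 10 lay above the median gene level. So did 9 of 12 fibroblast and 6 of 8 melanocyte markers, so this count does not single out 1 cell type. The mean level of the keratinocyte list, 10.02 and 10.06 on WT arrays and 9.88 and 9.91 on the others, was the highest of the 5 marker lists. That level bears out the labelled cell type, though probes differ between genes. Krt14 lay at 12.5 and 12.2, while Krt15 lay at 2.93 and 3.04 (WT mean and labelled Glut1-deficient mean, log2 intensity). From here on, rose, fell and passed mean a limma adjusted p under 0.05 over all genes unless another setting is named. Over all genes 1.79% rose and 1.05% fell, and 22.2% had an unadjusted p under 0.05. Mean values of 11 of 12 fibroblast markers were higher on the labelled Glut1-deficient arrays, 9 of them without overlap. Of all 22180 genes, 10731 had a positive log2 fold change and 25.5% lay above both WT arrays without overlap. The mean of the fibroblast list was 5.17 to 5.21 on WT arrays and 5.90 to 6.47 on the others (log2). Twist2 alone rose, by 2.40 on the log2 scale, from a WT mean of 2.91. Fbln2 went the other way, at 9.23 and 9.30 on WT arrays and 8.83 and 8.46 on the others (log2 fold change -0.62, limma adjusted p = 0.101). Of 8 melanocyte markers 4 rose (Dct, Mlana, Pmel and Tyrp1), with list means of 5.12 to 5.32 and 5.96 to 5.99. Of 6 endothelial markers Kdr rose, by 2.38, while the list had 3 positive and 3 negative values with a median of 0.02 and Pecam1 at -0.35. Of 7 leukocyte markers 0 passed in limma (3 at an unadjusted p under 0.05). Among the 11 keratinocyte markers 0 passed in limma (7 at an unadjusted p under 0.05), 4 had positive and 7 negative log2 fold changes, and the values ran from -0.73 (Col17a1) and -0.57 (Itgb4) to 0.30 (Perp) and 0.47 (Dsg3). In RNA from mixed cells, fewer cells of a type and less RNA per cell cannot be told apart.

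None of the 9 AP-1 and EGR genes passed the test over all genes (limma, Benjamini-Hochberg adjusted p under 0.05), where 630 of 22180 genes (2.84%) passed, 1.79% upward and 1.05% downward. At an unadjusted p under 0.05, limma called 5 of the 9, namely Fos, Jun, Junb, Jund and Egr3, against 22.2% of all genes. That share includes dim genes, whereas all 9 lie above the median gene level. Fitted among the 11090 genes above that level, limma gave 4316 genes and 5 of the 9 at an unadjusted p under 0.05. Jun, Jund and Fos had the largest differences, each about 1.4-fold to 1.5-fold higher on the labelled Glut1-deficient arrays, while Junb was 1.25-fold lower. Egr1, Egr2, Fosb and Fosl2 had log2 fold changes between -0.09 and 0.07. The 2 arrays labelled Glut1-deficient lay above both WT arrays for 4 of the 9 genes, as they did for 25.5% of all genes, and below both for 1 of the 9, as for 27.7% of all genes. The median log2 fold change was 0.07 over the 9 genes and -0.007 over all genes.

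**Figure D1:**
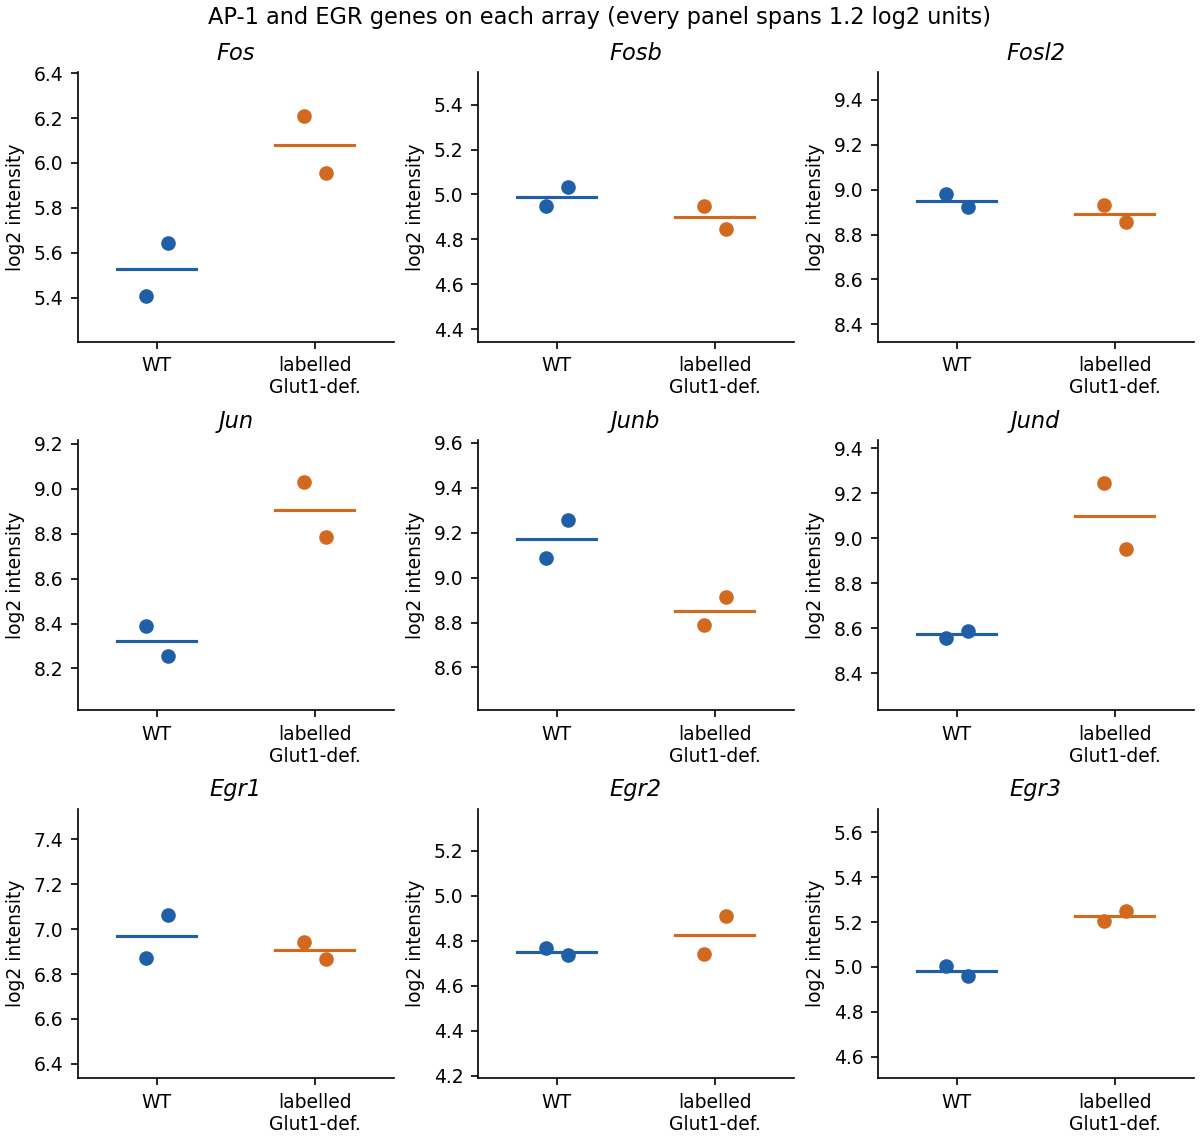
Log2 intensity of each AP-1 and EGR gene (vertical axis, 1.2 log2 units in every panel) on the 2 WT arrays (blue points) and the 2 arrays labelled Glut1-deficient (orange points), with lines at the group means. The genotypes separate without overlap for Fos, Jun, Junb, Jund and Egr3 and overlap for Fosb, Fosl2, Egr1 and Egr2; heights are not comparable between panels, since each row has its own probes.

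Values of the JUN genes lay higher for Jun and Jund and lower for Junb on the arrays labelled Glut1-deficient, and none of the 3 passed over all genes. Jun encodes c-Jun, the JUN subunit with the strongest transactivation, and its log2 intensities were 8.39 and 8.26 on WT arrays and 9.03 and 8.78 on those labelled Glut1-deficient. Both of the latter lay at least 0.46 above the WT mean, while arrays of a genotype differed by 0.134 (WT) and 0.244 (labelled Glut1-deficient). This was a log2 fold change of 0.58 (SE 0.121, 95% interval 0.27 to 0.89, limma adjusted p = 0.0808), which is 1.50-fold. Jund encodes JunD, a subunit present in most resting cells, and its brighter row read 8.56 and 8.59 on WT arrays against 9.25 and 8.95. The WT pair was close, 0.031 apart, and the other pair was 0.296 apart, with no overlap between genotypes. Its log2 fold change was 0.53 (SE 0.126, 95% interval 0.20 to 0.85, limma adjusted p = 0.103). The dimmer Jund row pointed the same way, at 6.00 and 5.84 against 6.25 and 6.33, a log2 fold change of 0.37 (95% interval 0.07 to 0.67 with every row of the table tested).

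Junb, whose product is a weaker activator and can hold back Jun, read 9.09 and 9.25 on WT arrays and 8.79 and 8.91 on those labelled Glut1-deficient. The lower WT value stood above the higher of the other pair, so the genotypes did not overlap. This gave a log2 fold change of -0.32 (SE 0.106, 95% interval -0.59 to -0.05, limma adjusted p = 0.177). The upstream sequences of the 3 JUN genes are shown because the values of these genes differed in sign, although none passed. They are the 250 bases before the RefSeq start, on the gene's strand in build GRCm38.p6, with capitals marking matches to the motifs described after them.
Jun (chr4:95052223-95052472, minus strand): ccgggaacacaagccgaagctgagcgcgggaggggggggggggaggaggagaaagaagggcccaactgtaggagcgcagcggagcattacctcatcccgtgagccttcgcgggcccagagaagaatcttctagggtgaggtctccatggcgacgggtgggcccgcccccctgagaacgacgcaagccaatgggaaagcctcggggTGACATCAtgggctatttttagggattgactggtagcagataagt
Junb (chr8:84978749-84978998, minus strand): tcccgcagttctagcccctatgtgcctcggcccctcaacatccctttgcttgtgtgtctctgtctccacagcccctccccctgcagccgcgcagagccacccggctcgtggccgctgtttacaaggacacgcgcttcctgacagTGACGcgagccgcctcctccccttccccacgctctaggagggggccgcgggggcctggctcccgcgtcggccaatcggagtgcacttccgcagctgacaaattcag
Jund (chr8:70697489-70697738, plus strand): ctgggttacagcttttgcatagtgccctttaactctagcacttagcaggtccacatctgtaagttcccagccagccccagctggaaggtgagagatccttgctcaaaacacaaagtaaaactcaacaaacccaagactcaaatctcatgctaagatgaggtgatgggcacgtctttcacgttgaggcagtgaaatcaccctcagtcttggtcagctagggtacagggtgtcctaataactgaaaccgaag

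These windows were searched on both strands for the AP-1 site TGANTCA (found in 6.75% of 32851 RefSeq windows of this length), the cyclic AMP response element TGACGTCA (1.55%), its first 5 bases TGACG alone (17.8%, which includes every full element), the AP-1 variant TGACATCA (2.93%), the EGR site GCGNGGGCG (4.70%) and the CArG box bound by serum response factor (1.47%), and on the gene's strand for the TATA box TATAAA (7.59%). Of the 10 genes, 7 have a window in the RefSeq table. In the Jun window the single match was TGACATCA, from 45 to 38 bases before the start. In the Junb window it was TGACG, from 106 to 102 bases before the start, and in the Jund window none of these letters occurred. The Jund window was also the least GC-rich of the 3, at 47.6% against 61.2% for Jun and 66.4% for Junb. A match here describes the sequence and is not a measured site, and the windows hold 250 bases only.

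Among the FOS genes, Fos had the largest difference. Fos encodes c-Fos, the usual partner of c-Jun in the early response, and read 5.41 and 5.65 on WT arrays and 6.21 and 5.96 on those labelled Glut1-deficient. The arrays of each genotype differed by 0.238 and 0.253, and the genotypes did not overlap. Fos thus had a log2 fold change of 0.56 (SE 0.138, 95% interval 0.20 to 0.91, limma adjusted p = 0.108), which is 1.47-fold. Fosb, which encodes a related activator, read 4.95 and 5.03 on WT arrays and 4.95 and 4.85 on the others. These values overlapped, and the log2 fold change was -0.09 (95% interval -0.33 to 0.15). Fosl2 encodes Fra-2, a FOS protein without the strong activation domain of c-Fos, and read 8.98 and 8.92 against 8.93 and 8.86. These values overlapped too, and the log2 fold change was -0.06 (95% interval -0.28 to 0.17).

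The Fos window is shown as that of the FOS gene with the largest difference, in the same build and with the same marking.
Fos (chr12:85473640-85473889, plus strand): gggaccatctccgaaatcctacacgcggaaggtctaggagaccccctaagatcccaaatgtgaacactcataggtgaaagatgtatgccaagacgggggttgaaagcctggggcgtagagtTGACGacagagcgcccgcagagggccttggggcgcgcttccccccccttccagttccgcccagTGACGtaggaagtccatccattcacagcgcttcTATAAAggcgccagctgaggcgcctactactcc

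This window held 2 copies of TGACG, from 129 to 125 and from 66 to 62 bases before the start, and a TATA box from 33 to 28 bases before it. No full response element, AP-1 site or CArG box lay within these 250 bases. The Fosb window held TGACG and the EGR site GCGGGGGCG, and the Fosl2 window held the same EGR letters. Fosb and Fosl2 overlapped between genotypes, and no measure of factor binding was made here.

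EGR genes showed small differences. Egr1, the most studied member, is induced by EGF and by wounding, and read 6.87 and 7.06 on WT arrays and 6.94 and 6.87 on those labelled Glut1-deficient. The genotypes overlapped, and the log2 fold change was -0.06 (95% interval -0.33 to 0.21, limma adjusted p = 0.782). Egr2, better known for its part in nerve myelination and in lymphocytes, read 4.77 and 4.74 against 4.74 and 4.91, which overlapped (log2 fold change 0.07, 95% interval -0.18 to 0.33). Egr3, which shares DNA sites with Egr1, read 5.00 and 4.96 against 5.21 and 5.25. Its arrays were 0.045 apart in each genotype and the genotypes did not overlap, yet the difference was small, at a log2 fold change of 0.25 (SE 0.085, 95% interval 0.03 to 0.47, limma adjusted p = 0.187). Of the 5 RefSeq windows of Egr2, 4 held a CArG box, in 3 of them the same CCATATATGG, since those windows overlap.

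**Figure D2:**
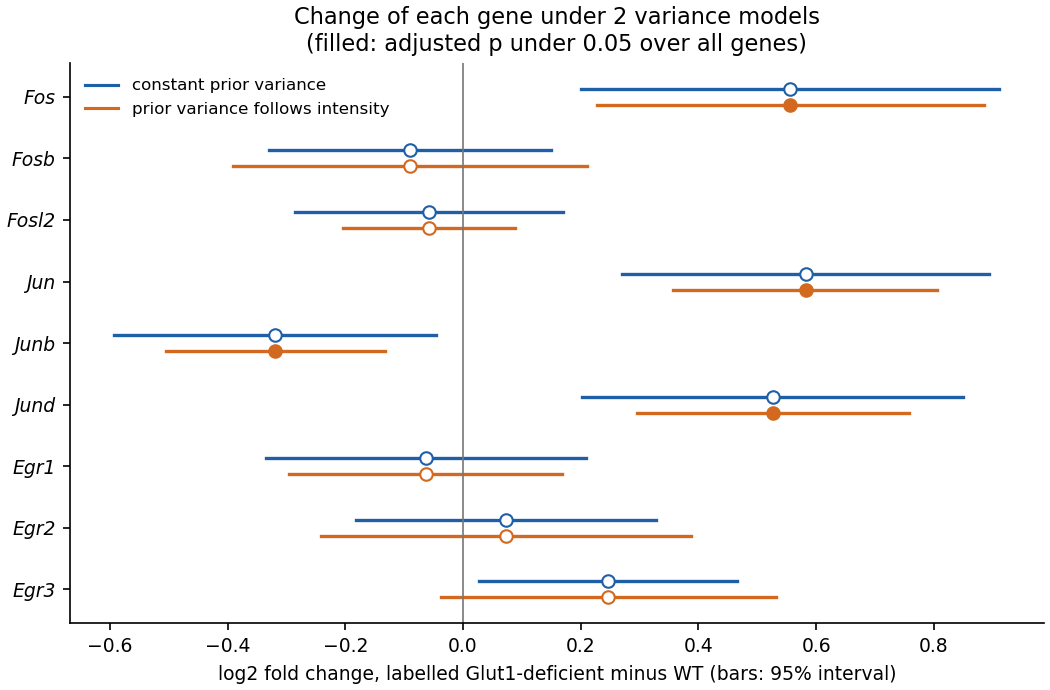
Log2 fold change of each gene (points; labelled Glut1-deficient minus WT) with its 95% interval (bars), with the prior variance of limma held constant (blue) or allowed to follow intensity (orange). Filled points passed at an adjusted p under 0.05 over all genes; none did with a constant prior and Fos, Jun, Junb and Jund did with the intensity trend.

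Whether these genes passed depended on how the variance was modelled. With a prior variance that follows intensity, limma called Fos (adjusted p = 0.0458), Jun (0.0099), Junb (0.0433) and Jund (0.0163), 4 of the 9, where 12.0% of all genes passed, and with robust estimation the same 4 genes passed against 12.3% of all genes. The standard error of Jun was then 0.095 and that of Junb 0.079, whereas that of Egr3 was 0.120 and its 95% interval, -0.04 to 0.53, included 0. Tested only among genes above the median level, where all 9 lie, Fos, Jun and Jund passed (limma adjusted p = 0.042, 0.0272 and 0.0369) beside 21.0% of those genes. Egr2, Fosb and Egr3, with 4-array means of 4.79, 4.94 and 5.10, lay only just above that median of 4.76. At an adjusted p under 0.1 over all genes Jun alone passed beside 8.36% of genes. With any 1 array left out, 0 of all 22180 genes passed (limma, 2948 to 4627 genes and 2 to 4 of the 9 at an unadjusted p under 0.05), so the count of 0 is not particular to the 9 genes. The difference on the log2 scale stayed between 0.46 and 0.70 for Jun, 0.38 and 0.67 for Jund, 0.43 and 0.68 for Fos and -0.40 and -0.23 for Junb. Egr1 turned to 0.03 without WT array 2, and Egr2 to -0.01 without labelled Glut1-deficient array 2.

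Genes of a subfamily were also compared within each array, as the difference of their log2 values relative to its WT mean. Jun less Junb was 0.151 and -0.151 on the WT arrays and 1.09 and 0.717 on the other arrays, so the change of Jun exceeded that of Junb by 0.901. Junb less Jund was -1.06 and -0.635 on the latter arrays, a difference of -0.845, and did not overlap with the WT arrays either. Jun less Jund differed by 0.056, with values of 0.030 and 0.082 that fell within the WT spread. Fos exceeded Fosb by 0.646 and Fosl2 by 0.614 in change, while Fosb and Fosl2 differed by -0.032. With 2 arrays per genotype no exact two-sided permutation test can give a p below 0.333, so the separations of these 9 pairs are descriptions (exact permutation p from 0.333 to 1, adjusted p from 0.5 to 1).

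**Figure D3:**
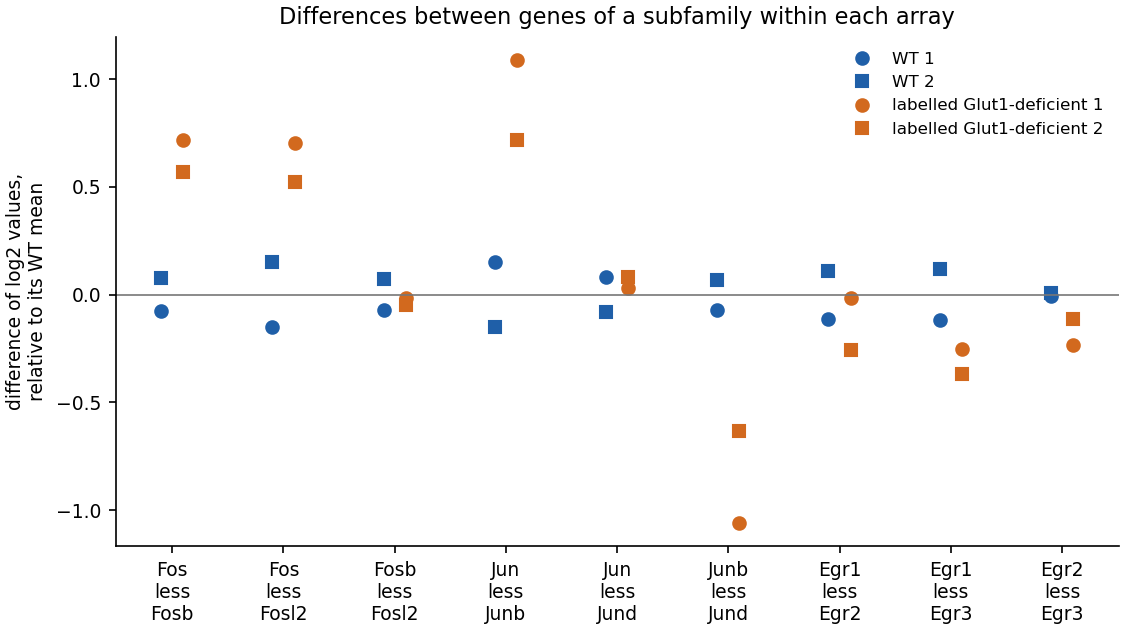
Difference between the log2 values of 2 genes of a subfamily within each array (vertical axis, relative to the WT mean of that difference), for WT arrays (blue) and arrays labelled Glut1-deficient (orange), array 1 as circles and array 2 as squares. The widest separations are those of Jun less Junb and Junb less Jund, which run in opposite directions because Junb is first in one and second in the other.

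The larger differences were not equal on the arrays labelled Glut1-deficient. Relative to the WT mean, array 1 stood at 0.70 for Jun, 0.67 for Jund, 0.68 for Fos and -0.38 for Junb, and array 2 at 0.46, 0.38, 0.43 and -0.26. For Egr3 the order was the other way, at 0.22 and 0.27. The fibroblast marker list had its higher mean, 6.47, on array 1 as well, against 5.90 on array 2 and 5.17 and 5.21 on the WT arrays. Fibroblasts express AP-1 genes too. The part of the marker shift in these differences, higher for Jun, Jund and Fos and lower for Junb, was not tested.

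Other basic leucine zipper factors that dimerise with AP-1 subunits or modulate them included genes that passed over all genes. Of 13 with a value, 2 rose, 1 fell and 10 did not pass, with a list median of 0.11, and 4 had an unadjusted p under 0.05 in limma. Over all genes 1.79% rose, 1.05% fell and 22.2% had an unadjusted p under 0.05. Maf, a large MAF factor, fell by 1.53 on the log2 scale, from 6.04 ± 0.127 to 4.50 ± 0.045 (SD over 2 arrays, limma adjusted p = 0.0139). Jdp2, a JUN dimerisation protein that represses AP-1 targets, rose by 1.03 (7.17 ± 0.060 to 8.19 ± 0.095, limma adjusted p = 0.0211). Atf3, a stress-induced partner of JUN proteins, rose by 1.07 (7.33 ± 0.137 to 8.40 ± 0.137, limma adjusted p = 0.0284). Among Egr4, Wt1 and the EGR corepressors Nab1 and Nab2, 0 of 4 passed in limma and 1 had an unadjusted p under 0.05. Nab1 had a log2 fold change of 0.40 and Nab2 of 0.35. Under the intensity trend, which called 12.0% of all genes, 1 of these 4 passed, as did 4 of the 13 basic leucine zipper factors.

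Other immediate early genes went both ways. Of 38 with a value, 3 rose, 3 fell and 32 did not pass, and 26 had an unadjusted p under 0.05 in limma (list median 0.11). The shares over all genes were 1.79% that rose, 1.05% that fell and 22.2% with an unadjusted p under 0.05. Among genes above the median level, where most of this list lies, 4316 of 11090 had such a p in limma. Ptgs2, the inducible cyclooxygenase, rose by 1.18 on the log2 scale, the MAP kinase phosphatase gene Dusp5 by 0.91 and the epidermal transcription factor Klf4 by 0.88, while Rhob, a small GTPase gene, fell by 0.95. The counts of this list rested on the variance model as those of the AP-1 genes did, with 25 past the threshold under the intensity trend, which called 12.0% of all genes. None of 18 upstream kinases and members of the serum response factor axis passed in limma (3 at an unadjusted p under 0.05, list median -0.06). The largest differences were those of Mrtfa, a coactivator of serum response factor, at -0.39, and Braf at 0.35. With the intensity trend 2 of these 18 genes passed. None of 4 ubiquitin ligases of AP-1 proteins passed (1 at an unadjusted p under 0.05 in limma); the ligase adaptor Det1 was at 0.29 and Cop1, a ligase for c-Jun, at 0.10.

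Known AP-1 target genes of keratinocytes split in direction. Of 25 with a value, 4 rose, 3 fell and 18 did not pass, with 21 at an unadjusted p under 0.05 in limma and a list median of 0.12. Among all genes 1.79% rose, 1.05% fell and 22.2% had an unadjusted p under 0.05. Most of these target genes lie above the median level, where limma gave 4316 of 11090 genes such a p. Involucrin, a precursor of the cornified envelope encoded by Ivl, fell by 1.58 in log2 units (7.94 ± 0.076 to 6.36 ± 0.238, limma adjusted p = 0.0208) and the envelope protein gene Sprr2d by 1.52. The growth factor gene Ereg rose by 1.28 (7.17 ± 0.064 to 8.45 ± 0.203, limma adjusted p = 0.0223) and the urokinase receptor gene Plaur by 0.89. The metalloproteinase genes of the list, picked out after their values were seen, lay at both ends of it. Mmp3 rose by 1.90 (limma adjusted p = 0.0359), and Mmp10 at 1.32 and Mmp13 at 1.25 did not pass. The gelatinase gene Mmp9 read 10.2 and 10.1 on WT arrays and 6.83 and 8.21 on the others, a log2 difference of -2.64 (limma adjusted p = 0.0565), with 1.38 log2 units between the latter arrays. Fibroblasts also express several genes of this list. The part of the fibroblast and melanocyte marker shifts given above in its values was not tested. Under the intensity trend, which called 12.0% of all genes, 20 of these genes passed. Of 16 EGR target genes 0 passed in limma, with 8 at an unadjusted p under 0.05 and a list median of -0.05. Tnf, the cytokine gene, was at -1.29 and Pdgfb, a growth factor gene, at -0.71. This list moved with the setting too. Under the intensity trend 6 of the 16 passed. Among genes above the median level, where 21.0% of genes passed, 7 of the list did so. Fasl and Id4, with 4-array means of 3.02 and 4.40, lie under that level and were not tested there.

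**Figure D4:**
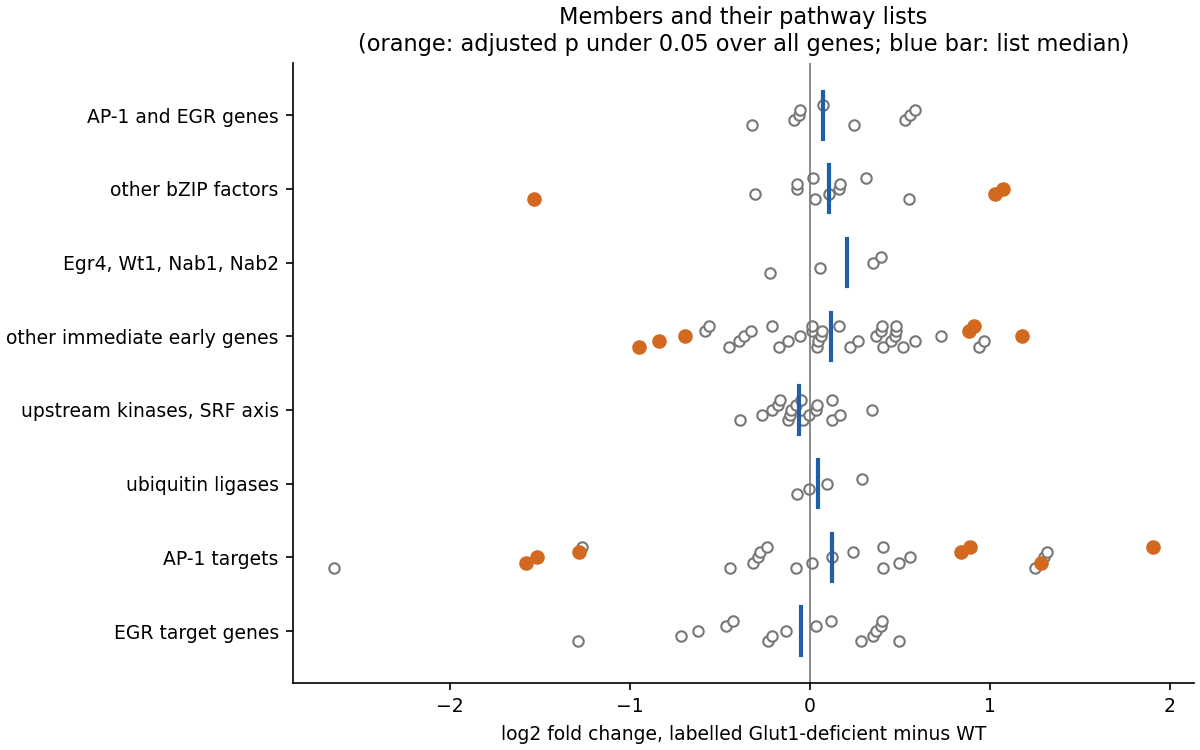
Log2 fold changes (horizontal axis, labelled Glut1-deficient minus WT) of the AP-1 and EGR genes and of their pathway lists, 1 point per gene, orange where the gene passed at an adjusted p under 0.05 over all genes, with the list median as a blue bar. All medians lie near 0, between -0.06 and 0.20. With a constant prior variance, the genes that passed are other basic leucine zipper factors, other immediate early genes and AP-1 targets.

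Jun had the smallest p of the 9 genes, and the 5 genes closest to its profile, by Euclidean distance over the 4 arrays after each gene was centred on its mean, were Klhdc8a (0.021), Galnt16 (0.027), Rgs7bp (0.028), Gadd45gip1 (0.041) and Cnppd1 (0.043). Their log2 fold changes ran from 0.55 to 0.60, as that of Jun did, and with 4 arrays such closeness describes the values only.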

How the data were processed

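Labelled cDNA was hybridised to mouse whole-transcript arrays. The authors deposited log2 values, 1 per transcript cluster, which RMA in Affymetrix Expression Console produced, per the submitters' processing notes (versions: not given in the sources used here). RMA quantile-normalizes the arrays, so every change is relative to the other genes. Of 41345 rows, 23521 name 1 gene and 1814 several; the brightest row stood for each of 22180 genes, with no filter on dim rows. Genotypes were compared with limma 3.58.1 (R 4.3.3, lmFit and eBayes, no trend, 2 residual and 2.95 prior degrees of freedom), two-sided, Benjamini-Hochberg adjusted over all genes. The fit was also run on simulated data with added changes. Variances were shuffled among genes there, so that run does not bear on the choice of prior variance. The labels call the arrays biological replicates; p-values measure the spread between 2 pools. No depth applies to intensities. The members, gene lists (7 pathway, 5 marker) and tests were chosen with earlier results of these data known. From each pathway list the text names up to 4 passing genes by p, or the 2 largest changes where none passed, and adds the metalloproteinase genes. Of the marker lists it names every passing gene and some others picked without that rule, and no leukocyte gene. Alternatives were an intensity trend, other scalings, a dim-gene filter, other uses of rows, leaving out arrays, the replicate number and a looser threshold. Upstream sequences come from RefSeq (GRCm38.p6); Fosl1, Egr1 and Egr3 have none here.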

Additional observations from a re-analysis of the deposited data

How the results depend on the processing

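The count of genes past the threshold was 630 with the settings of the report. It was 2671 with an intensity trend, 2729 with robust estimation added, 2327 among genes above the median level, 1855 at an adjusted p under 0.1 and 0 with every row tested (limma, 6694 rows at an unadjusted p under 0.05). It ranged from 0 to 0 with 1 array left out (2948 to 4627 genes at an unadjusted p under 0.05 in limma), where 1 residual degree of freedom remains and a lone array is assumed to vary like the others. The count of AP-1 and EGR genes was 0, and became 4, 4, 3 and 1 under the first 4 of these settings; it was 0 to 0 with 1 array left out and 0 under the other settings. With the replicate block, 37 genes and 0 of the 9 passed (limma, 4335 genes and 4 of the 9 at an unadjusted p under 0.05). Arrays of equal number did not deviate together across genes (r = -0.025), and the labels state no pairing. This single correlation cannot exclude a shared preparation. Counts for median centring (726), repeated quantile normalization (606) and the mean of rows (636) lay within 1.5 times of the reported one. No AP-1 or EGR gene that passed under one of these settings had the opposite sign under another. The log2 fold change of Jund was 0.45 with the mean of its 2 rows. Signal over background could not be assessed, since detection calls were not used here.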
